A study of Triticum aestivum with 16 samples.

Results

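SB189 is a recombinant inbred line of hexaploid bread wheat from the cross of Seri M82 with Babax, and its flag leaf transcripts were set against those of 7 sister lines of the same cross, SB15, SB33, SB53, SB80, SB138, SB146 and SB165. The members are the 2 arrays labelled as SB189 flag leaf, of 16 arrays in all, and the reference is the mean of the 7 other line means. The study concerned differences between genotypes in water soluble carbohydrate metabolism. All 8 lines were grown in an irrigated field in 2007, and flag leaves were taken 6 to 8 days after anthesis from 2 field replicates of each line. Total RNA was labelled with biotin and hybridised to an Affymetrix wheat array. No treatment, transgene or added agent separates the lines, and the labels give no carbohydrate level for any of them. They call the replicates biological and do not say how many plants entered a sample.

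The flag leaf is the last leaf below the ear and feeds the filling grain with sucrose. In wheat, sugar beyond the need of the grain is held for a time, mainly in the stem, as water soluble carbohydrate, of which fructans, chains of fructose built on sucrose, form a large share. Fructosyltransferases build fructans and fructan exohydrolases take them apart. Recombinant inbred lines are made by selfing the progeny of a cross until each line is nearly homozygous, so that each carries its own mosaic of the parental chromosomes. Bread wheat holds 3 related genomes, and most genes have homoeologs, near copies on the matching chromosomes of the other genomes. A probe set is a group of short probes that reads 1 transcript or several near copies, and a mismatch between probes and transcript lowers its value as less transcript does. The amount of a transcript and its match to the probes therefore cannot be told apart in these values.

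Values were deposited on the log2 scale, with a floor of 2.25 and a top of 16.67. Of the 61115 probe sets that are not controls, 19740 had a mean of 5 or more over the 16 arrays. The description below is of these unless another set is named. The SB189 arrays count in that mean, so a dim probe set could pass through high SB189 values but not through low ones. Genes are named from the platform annotation, which gives a gene for 1273 probe sets. Most of those genes carry only a locus number in RefSeq, and no role is given for them here. Probe sets whose names share the first parts, such as Ta.3242.1 and Ta.3242.3, come from 1 transcript cluster.

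Of 36 probe sets of flag leaf markers, 16 had a mean of 5 or more, and 18 had line means near the floor (under 3.25) in all 8 lines. Each of the 6 marker genes had a probe set at a mean of 5 or more. PRK and petC stood near the top of the scale in both SB189 arrays. PRK, the phosphoribulokinase of the Calvin cycle, had values of 14.99 and 15.03. The Rieske iron-sulphur protein of the cytochrome b6f complex, petC, had 15.28 and 15.34. Of 27 probe sets of grain markers, 25 had line means near the floor (under 3.25) in all 8 lines, as did 4 of 6 anther or pollen probe sets. The exceptions were an avenin-like gene (LOC100125692) at 11.70 and 11.73 in SB189, the amylase inhibitor gene WMAI-1 (LOC542981) at 5.75 in both, and profilin (LOC543315) at 13.57 and 13.50. The grain markers summed on the linear scale came to 3495 and 3566 in the SB189 arrays and to between 2788 and 3386 in the other 14, and their part in the results below was not tested. The summed flag leaf markers were 349169 and 355306 in SB189 against 316321 to 364055 in the others.

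By some measures the spread between the 2 SB189 arrays was the widest of the series. Their correlation over the 19740 probe sets was 0.990, where the other 7 lines had between 0.989 and 0.995. The median absolute difference between the replicates was 0.16 for SB189, the highest of the 8 lines, against 0.11 to 0.15 for the others. In SB189 244 probe sets differed by more than 1 between the 2 arrays, with the first higher in 173 and the second higher in 71, and the other lines had between 73 (SB53) and 234 (SB146). A difference of more than 2 was found at 16 probe sets in SB189, fewer than the 38 of SB146, the 25 of SB33 and the 20 of SB165. The difference between the 3′ and the middle probe set of sucrose synthase, a sign of RNA integrity, was 2.36 and 2.15 in SB189 and had a median of 2.48 in the other arrays. For glucose-6-phosphate dehydrogenase it was 1.48 and 0.98 against a median of 1.58. Both differences had their lowest line mean in SB189, and the spiked hybridisation controls their highest. The same difference for ubiquitin was 0.11 and 0.21 against a median of 0.14, with SB189 ranked 4 of 8 lines. The part of these in the results was not tested.

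Compared with the 7 other lines, 516 probe sets differed in SB189 by limma at an adjusted p under 0.05, which is 2.61% of the 19740. Of these, 206 (1.04%) were higher and 310 (1.57%) were lower, so 39.9% of the calls were higher. The calls fell in 472 transcript clusters. The median difference was 0.70 among the higher and -0.68 among the lower calls, on the log2 scale, and -0.01 over all 19740. In 169 calls the difference was under 0.5 and in 178 it lay between 0.5 and 1. The other 169 calls (0.856%) differed by at least 1, that is at least 2-fold, with 64 higher (0.324%) and 105 lower (0.532%). Of the 516, 489 have no gene in the annotation. Over all 61115 probe sets 776 (1.27%) were called, 395 higher (0.646%) and 381 lower (0.623%).

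The count leans on the SB189 arrays. Without the first, 1186 probe sets were called and 917 of them were lower, and without the second 204 were lower. Of the 516 calls, 228 were also made without each of the SB189 arrays in turn, and 211 under every alternative run. The alternative of a minimum difference of 1 is set aside here and wherever a call is said to hold or end. It leaves 169 of the 516 calls by size alone. Among the 20 probe sets with the largest differences, the calls that ended are given beside the values, and those of annotated genes after their values.

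The 10 probe sets with the largest falls and the 10 with the largest rises held both levels found in SB189 alone and levels that SB189 shared with 1 or more lines. Transcript cluster Ta.611 gave the largest fall. Ta.611.1.A1_at read 2.25, at the floor, and 7.44 in the SB189 arrays, while the other 14 lay between 9.87 and 11.22 with a median of 10.63. Both SB189 arrays were below all others, but they stood far apart from each other. The value fell by 5.82 ± 0.98 (SE, n = 2 against 14 arrays; adjusted p = 0.0287 by limma), and the fall was 3.23 without the first SB189 array and 8.42 without the second. The call ended without line SB80 (adjusted p = 0.0592) and without line SB165 (adjusted p = 0.0541 by limma). Ta.611.2.S1_at read 2.34 and 4.87 against 6.82 to 8.78, median 7.66. It too was below all 14 other arrays in both replicates, by 4.12 ± 0.55 against the line means (adjusted p = 0.0098 by limma).

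A second cluster, Ta.5479, had the same split between replicates. Ta.5479.2.A1_at read 3.01 and 7.06 in SB189 and 9.89 to 10.73, median 10.14, in the others. The SB189 arrays were both below the rest, and the fall of 5.13 ± 0.75 (adjusted p = 0.0157 by limma) was 3.11 without the first and 7.16 without the second. Its cluster mate Ta.5479.1.A1_x_at read 7.36 and 7.42, with closely matching replicates, and fell by 1.55 (adjusted p = 0.00913 by limma). At Ta.611.1.A1_at, Ta.611.2.S1_at and Ta.5479.2.A1_at the direction was thus shared by both replicates and the size was not.

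Further probe sets low in SB189 alone had closer replicates. TaAffx.50254.2.A1_at read 4.85 and 5.76 against 8.64 to 9.26, median 9.03. All 14 other arrays lay within a narrow range well above both SB189 arrays, and the difference was -3.70 ± 0.18 (adjusted p = 4.49e-05 by limma). Ta.19312.1.S1_at read 2.68 in both SB189 arrays against 5.22 to 6.70, median 6.25. The groups did not overlap, and the difference was -3.51 ± 0.29 (adjusted p = 0.000729 by limma).

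Rises found in SB189 alone were fewer. Ta.4157.1.S1_at read 9.42 and 8.35 against 5.13 to 5.70, median 5.31. All 7 other lines shared 1 low level, and SB189 was higher by 3.55 ± 0.21 (adjusted p = 0.000107 by limma). Ta.29640.1.S1_x_at read 10.33 and 7.86 against 5.06 to 5.61, median 5.32. Both SB189 arrays were above all others, with the first well above the second, and the difference was 3.80 ± 0.46 (adjusted p = 0.00632 by limma).

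**Figure D1:**
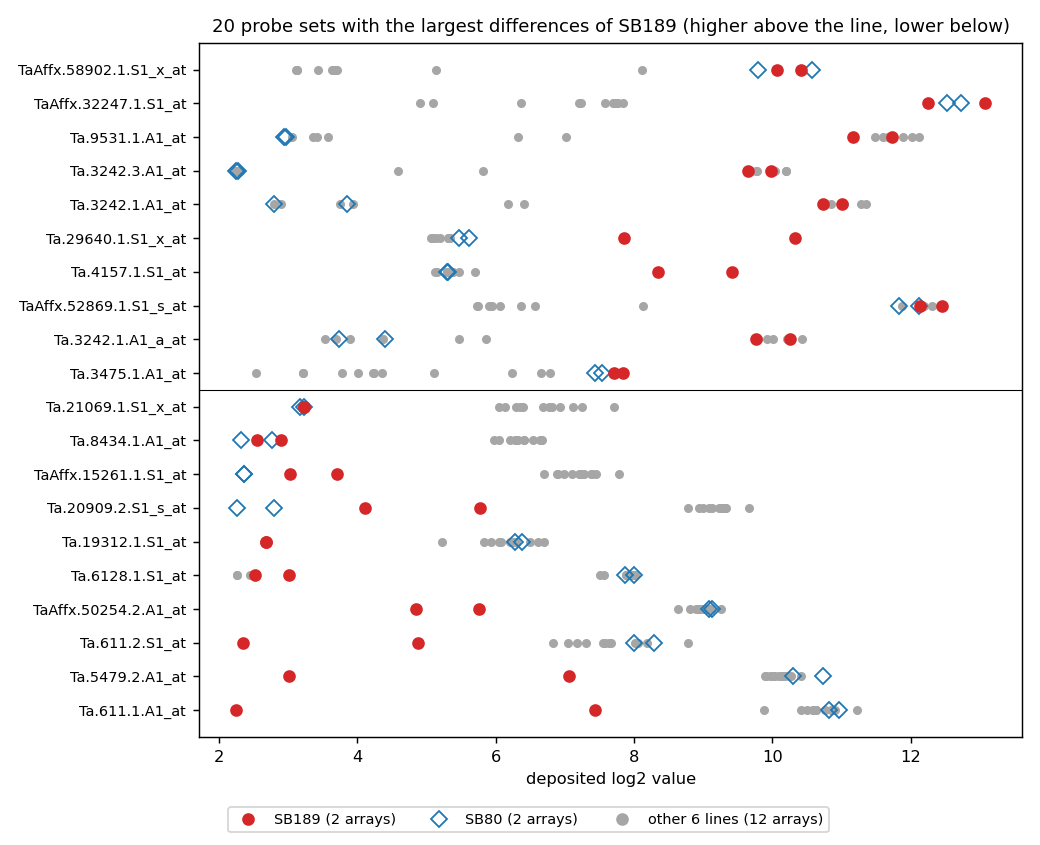
Deposited log2 values of each array (x axis) for the 20 probe sets with the largest differences of SB189 (y axis), the 10 lower ones at the bottom and the 10 higher ones at the top. Points are arrays of SB189 (red), SB80 (blue diamonds) and the other 6 lines (grey). At Ta.4157.1.S1_at the SB189 arrays stood alone at 9.42 and 8.35, and at Ta.20909.2.S1_s_at they lay between SB80 and the rest.

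Other large rises were at levels also found in further lines. TaAffx.58902.1.S1_x_at read 10.07 and 10.41 in SB189 and had a mean of 10.18 in SB80, 6.63 in SB33 and 3.12 to 3.68 in the other 5 lines. SB189 and SB80 thus shared the high level, and the difference of SB189 from the 7 lines was 5.35 ± 0.58 (adjusted p = 0.00323 by limma), the largest rise called. This probe set passed the mean of 5 (16-array mean 5.56) only with the SB189 arrays counted, as the other 7 line means averaged 4.89. TaAffx.32247.1.S1_at read 13.08 and 12.25, with SB80 at 12.63 and no other line mean above 7.73. SB189 was higher by 4.80 ± 0.30 (adjusted p = 0.000148 by limma). TaAffx.52869.1.S1_s_at read 12.46 and 12.13, a level shared with SB33, SB53 and SB80, and was higher by 3.50 ± 0.33 (adjusted p = 0.00156 by limma).

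Ta.9531.1.A1_at and 3 probe sets of cluster Ta.3242 followed 1 pattern over the lines. Ta.9531.1.A1_at read 11.74 and 11.16 in SB189, with line means of 11.95, 11.85 and 11.58 in SB33, SB146 and SB165. It had means of 2.96 to 3.47 in SB53, SB80 and SB138, and SB15 lay between at 6.67. The difference was 4.06 ± 0.21 (adjusted p = 6.75e-05 by limma). The 3 Ta.3242 probe sets had the same lines high and low, with SB189 values of 11.01 and 10.73 at Ta.3242.1.A1_at, and differed by 3.83 (Ta.3242.1.A1_at), 3.84 (Ta.3242.3.A1_at) and 3.22 (Ta.3242.1.A1_a_at). A further probe set of that cluster, Ta.3242.2.S1_at, had a difference of -0.04 (adjusted p = 1 by limma), so the probe sets of this cluster did not move together.

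Large falls with another line on the SB189 side were mostly shared with SB80. Ta.20909.2.S1_s_at read 4.10 and 5.77 in SB189, against a mean of 2.53 in SB80 and 8.97 to 9.45 in the other 6 lines. SB189 stood between SB80 and the rest, and it differed from the 7 line means by -3.31 ± 0.35 (adjusted p = 0.00282 by limma). In the same cluster Ta.20909.2.S1_x_at differed by -2.96. Ta.20909.1.S1_a_at, Ta.20909.1.S1_at and Ta.20909.3.S1_x_at differed by -0.04, 0.03 and -0.12, so the probe sets of this cluster did not move together either. TaAffx.15261.1.S1_at (SB189 3.02 and 3.71, SB80 2.36) and Ta.8434.1.A1_at (2.90 and 2.55, SB80 2.54) were at least 6.09 in every other line mean. They fell by 3.14 and 3.10 (adjusted p = 8.05e-05 and 5.38e-05 by limma). Ta.21069.1.S1_x_at read 3.23 in both SB189 arrays and 3.20 in SB80, and all 4 probe sets of its cluster were lower in SB189. Ta.6128.1.S1_at alone among the 10 was low with SB33 and SB138 in place of SB80, at 3.02 and 2.52 in SB189, 2.37 and 2.35 in those lines and at least 7.54 elsewhere (difference -3.52 ± 0.11, adjusted p = 4.08e-06 by limma).

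Of the 487 annotated genes with a probe set at a mean of 5 or more, 23 (4.72%) were called in SB189, taking the probe set with the lowest p for each. That choice gives a gene with several probe sets more chances, and over annotated probe sets the share was 3.91% (27 of 690). 15 genes (3.08%) were higher and 8 (1.64%) lower. 3 of the 23 have a name that tells what the protein does. Without the second SB189 array 9 genes were called. With the minimum difference of 1 set aside, the call held under every alternative for 8 genes, LOC780602, LOC606369, LOC606345, LOC780596, LOC780573, LOC542912, LOC780660 and LOC100037560. Of these, LOC780596, LOC780573, LOC542912 and LOC780660 differed by less than 1.

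The 3 annotated genes with the largest falls were all low in SB80 as well. LOC780602 (Ta.28514.1.A1_at) read 6.35 and 5.98 in SB189, with 5.26, 8.56 and 8.85 as the lowest, median and highest of the other arrays. SB189 was below 12 arrays of 6 lines and above both SB80 arrays, with a difference of -1.92 ± 0.08 (adjusted p = 1.42e-05 by limma). LOC606369 (Ta.24806.2.S1_at) read 6.50 and 5.99 against 6.10, 8.26 and 8.48. Here SB189 and SB80 (mean 6.47) overlapped, and the difference was -1.79 ± 0.17 (adjusted p = 0.00178 by limma). LOC606345 (Ta.5796.2.A1_at) read 5.16 and 5.34 against 4.57, 7.16 and 7.53. SB80 was the lower of the pair at 4.88, and SB189 differed by -1.61 ± 0.15 (adjusted p = 0.0014 by limma).

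Further probe sets of these 3 genes did not follow. The other 4 of LOC780602 differed by -0.32 to 0.16, with none called. For LOC606369, Ta.24806.3.S1_at was higher in SB189, at 9.25 and 8.70, by 0.85 (adjusted p = 0.026 by limma), while 2 further probe sets differed by 0.05 and 0.06. The second probe set of LOC606345 differed by 0.17 (adjusted p = 0.27 by limma). A fall of these genes as a whole is therefore not shown.

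Among smaller falls, 2 genes were low in all their probe sets. LOC542989 was called at its 3 probe sets, with differences of -0.55 (Ta.28351.1.S1_x_at), -0.63 (Ta.28351.1.S1_at) and -0.69 (Ta.28351.1.S1_s_at). Its first probe set read 10.25 and 9.95 in SB189 and 10.13 in SB80, and the other 6 line means were 10.52 or more. LOC780596 read 11.14 and 11.22 at Ta.894.1.S1_x_at, below all 14 other arrays (11.33 to 11.71), and fell by 0.41 (adjusted p = 0.0045 by limma), with 0.51 at its second probe set. TBP1, the TATA-binding protein that places the transcription machinery at promoters, read 8.22 and 7.95 against 7.73, 8.64 and 8.75. SB80 was the other low line (7.86), and TBP1 fell by 0.46 ± 0.07 (adjusted p = 0.0237 by limma).

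GA20ox1d (LOC543325), a gibberellin 20-oxidase of the pathway that makes the growth hormone gibberellin, read 5.15 and 4.64 at Ta.141.1.S1_at against 5.15, 5.52 and 6.31. The SB189 arrays sat at and under the lowest of the others, and the value fell by 0.75 ± 0.13 (adjusted p = 0.0349 by limma). Its second probe set, Ta.141.1.S1_x_at, read 5.10 in both SB189 arrays and differed by -0.06 (adjusted p = 1 by limma). LOC543111 (Ta.22794.1.S1_at) read 9.50 and 9.17, in reach of SB15, SB138 and SB146, and fell by 0.49 (adjusted p = 0.0455 by limma). Its other probe sets were not called. Ta.22794.1.S1_x_at differed by -0.46 (adjusted p = 0.0529 by limma). The brighter Ta.30622.1.S1_x_at went the other way, at 12.22 and 12.29 in SB189, by 0.30 (adjusted p = 0.136 by limma). The calls of LOC542989 and TBP1 ended without the second SB189 array and without line SB165. That of GA20ox1d ended without either of these, and also without SB33 replicate 1 or line SB80, with array weights and with a trend and robust prior. That of LOC543111 ended when any of 9 arrays was left out, 8 of them from other lines (SB33 replicates 1 and 2, SB146 replicates 1 and 2, SB53 replicate 2, SB80 replicate 2, SB138 replicate 2 and SB15 replicate 1), and without line SB80.

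The largest rises of annotated genes were in LOC780687 and LOC542773. LOC780687 (Ta.3475.1.A1_at) read 7.71 and 7.84 against 2.53, 4.30 and 7.53. Both SB189 arrays were above all others, with SB80 (7.49) and SB138 (6.71) nearest, and the difference was 2.82 ± 0.44 (adjusted p = 0.0198 by limma). Its second, dimmer probe set Ta.3475.2.S1_at read 5.19 and 5.02 and was higher by 2.40 (adjusted p = 0.0305 by limma). Ta.3475.1.A1_at passed the mean of 5 (16-array mean 5.30) only with the SB189 arrays counted, as the other 7 line means averaged 4.95.

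LOC542773 (Ta.2789.1.S1_a_at) read 10.65 and 11.59 against 7.50, 8.94 and 11.15. SB80 (10.91) and SB33 (10.37) were the other high lines, and the difference was 1.94 ± 0.29 (adjusted p = 0.0178 by limma). LOC100037560 (Ta.3976.1.S1_at), at 10.09 and 9.68, was higher by 1.24 ± 0.17 (adjusted p = 0.0108 by limma), with SB146 next at 9.77. LOC543368 (Ta.639.1.S1_at) read 9.56 and 9.995, above all 14 others (highest 9.51), by 1.19 ± 0.19 (adjusted p = 0.0226 by limma).

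The other 11 genes that rose did so by 0.32 to 0.98. LOC543492, LOC542839 and LOC543235, higher by 0.98, 0.82 and 0.55, had SB165 as the only other line on the high side. LOC780660 (TaAffx.2456.1.S1_at) read 6.51 and 6.33 against 5.66, 5.72 and 6.12, and LOC780573 (Ta.6350.2.S1_x_at) 8.99 and 8.92 against 8.32, 8.56 and 8.71. Both were above all 14 other arrays, by 0.65 and 0.43 on the means (adjusted p = 0.00275 and 0.00446 by limma). LOC542912 (Ta.7214.1.A1_at) was higher by 0.57 with SB80 (8.70) beside SB189 (8.77 and 8.77). FKBP70 (LOC543314), a peptidyl-prolyl isomerase that helps proteins fold, read 12.36 and 12.38 against 11.84, 12.04 and 12.24. It was above every other array by a small step, 0.32 ± 0.05 (adjusted p = 0.0147 by limma).

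Many of the calls of higher genes ended in fits without 1 of the SB189 arrays, where SB189 has a single array left. Those of LOC542773, LOC543492 and FKBP70 ended without the second SB189 array and in no other alternative fit. LOC543492 and FKBP70 differed by less than the minimum difference of 1. Those of LOC780687, LOC543368 and LOC778397 ended without that array too, and each of them also with array weights. For LOC543368 the call also ended without line SB80, and for LOC778397 without SB80, without SB165, with subtracted array medians and with a trend and robust prior. LOC543235 lost its call without the first SB189 array, without line SB80 and with array weights. LOC542839 lost its call without either SB189 array, without line SB80 and with array weights. Without the first and the second SB189 array in turn, the rise was 0.33 and 0.31 in FKBP70 and 0.98 and 0.97 in LOC543492. In LOC542839 it was 0.84 and 0.81. It changed more in LOC542773 (2.41 and 1.46), LOC543368 (1.40 and 0.97) and LOC778397 (0.53 and 0.28).

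The calls of LOC780696, LOC780658 and LOC543244 were the least stable of the higher genes. They ended in 6, 7 and 9 of the 16 fits that left out an array, both SB189 arrays among them. The arrays of other lines were SB33 replicate 1, SB53 replicate 2, SB138 replicate 2 and SB15 replicate 1 for LOC780696. They were SB33 replicate 1 and both replicates of SB146 and SB15 for LOC780658, and SB53 replicate 2 and both replicates of SB138, SB146 and SB165 for LOC543244. Each also lost its call with array weights, with a trend and robust prior and without line SB165, and LOC780658 and LOC543244 without line SB80.

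**Figure D2:**
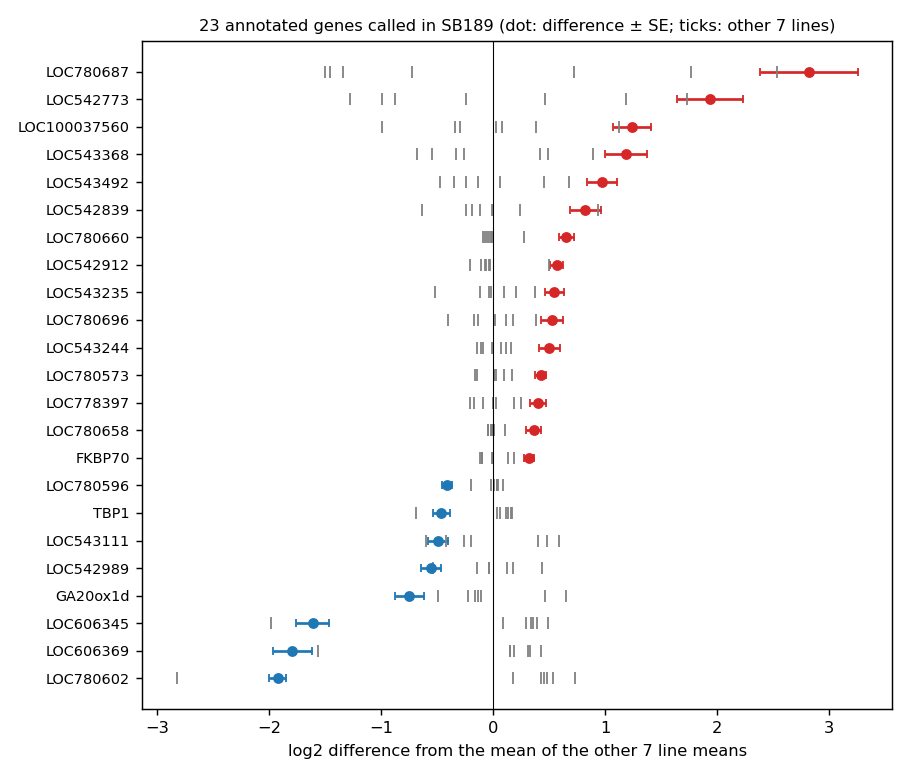
Log2 difference of SB189 from the mean of the other 7 line means (x axis, dot with SE; n = 2 against 14 arrays) for the 23 annotated genes called by limma (y axis), red where higher and blue where lower. Grey ticks are the other 7 line means on the same scale. For the 3 lowest genes a single tick, SB80, lies far from the rest on the SB189 side.

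The annotated calls were not spread evenly over the RefSeq chromosomes. This was looked at after seeing the values and was not tested, and the group described was picked as the one with the most calls. Of the 23 genes, 10 (43.5%) are annotated on 1 group of homoeologous chromosomes, which holds 69 of the 487 genes (14.2%), and 5 of the 8 lower genes are among them. The group with the next most calls had 5 of 71 genes. Of the 10 genes, TBP1, LOC778397, LOC543235 and LOC780696 lost their calls under alternatives, as given above. LOC606345 and LOC606369, both low in SB189 and SB80, lie near each other in RefSeq, with 5 protein-coding genes and no further gene of the array between them. The array's genome build is not given in the sources used here, so positions are left out.

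Genes with a known role in carbohydrate metabolism and in the leaf are given from 16 lists found by symbol or synonym. The lists hold 58 genes, 34 of them with a probe set at a mean of 5 or more. 3 of the 34 were called, FKBP70 (heat shock and folding) higher and TBP1 (transcription factors) and GA20ox1d (gibberellin synthesis) lower, beside 4.72% over all annotated genes.

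Both fructan hydrolysis genes were measured, and neither passed in the fit over all probe sets. 6-FEH (LOC780575), a fructan 6-exohydrolase, read 7.58 and 8.05 in SB189 at Ta.9641.1.A1_a_at, with 4.76, 6.40 and 8.09 as the lowest, median and highest of the others. SB189 lay in the upper part of that range, with line means of 8.04 in SB80 and 7.07 in SB33. The difference of 1.46 ± 0.31 missed the threshold (adjusted p = 0.0751 by limma). It passed in 6 of 25 alternatives, where the adjusted p by limma ran from 0.0102 to 0.388: with only the brighter probe sets in the fit, with subtracted array medians, with the field replicate in the fit, and without SB138 replicate 1, SB138 replicate 2 or SB146 replicate 2. A second 6-FEH probe set, Ta.30950.1.A1_x_at, read 9.35 and 9.79, a difference of 0.50 ± 0.12 (adjusted p = 0.115 by limma). Both had the same sign. The fructan 1-exohydrolase gene 1-FEHw2 (LOC543441) read 12.14 and 12.46 against 12.09, 12.46 and 12.58, a difference of -0.13 ± 0.09 (adjusted p = 0.802 by limma).

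The starch genes AGP-S (LOC543299) and AGA.1 (LOC543278), subunits of the ADP-glucose pyrophosphorylase that makes the sugar donor for starch, differed by 0.29 and 0.06. AGP-S read 11.81 and 11.94 in SB189, both above the highest other array (11.79), without passing the test (adjusted p = 0.236 by limma). The 4 Calvin cycle genes had a median difference of -0.07 and the 3 photosystem and cytochrome b6f genes -0.01, beside -0.01 over all 19740 probe sets. Their range was -0.30, in the rubisco large subunit gene rbcl (LOC100049018), to 0.24, in PsbP (LOC543290) of the water-splitting complex, and none was called.

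None of the 6 tubulin genes was called, with a median difference of -0.19, nor any of 3 histone genes, with a median of -0.10. The 4 antioxidant genes, among them catalase CAT1 at 15.09 and 15.15 and the glutathione transferase GSTZ1 (LOC543412, difference 0.35), had a median of 0.10. The pathogenesis-related gene PR5 (LOC543292) read 13.73 and 13.29 within a range of 12.31 to 14.62 in the others, a difference of 0.15. The zinc finger gene WZF1 (LOC543182) read 8.27 and 7.92 against 6.03, 7.17 and 7.98, a difference of 0.94 that missed the threshold (adjusted p = 0.103 by limma). It passed in 3 of 25 alternatives, with only the brighter probe sets, with subtracted medians and without SB80 replicate 1. Members of the invertase, dehydration and cold, protease inhibitor and cell wall lists had no probe set at a mean of 5 or more.

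Each called probe set was then described by how many of the other 7 lines lay on the SB189 side of the midpoint between SB189 and the mean of the rest. Of the 105 probe sets lower by at least 1, SB189 was alone on its side in 14. In 73 exactly 1 line was with it, and in 66 of those that line was SB80. Of the 64 higher by at least 1, SB189 was alone in 6, had 1 line with it in 18 (SB80 in 7) and had 3 or more lines with it in 23. SB33 was on the SB189 side in 28 of the 64, SB80 in 26 and SB165 in 23.

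Without any estimate of spread, both SB189 arrays lay above all 14 others at 459 probe sets (2.33%) and below all of them at 483 (2.45%). Counted in the same way, the other 7 lines had 167 (SB53) to 931 (SB165) above and 78 (SB33) to 1064 (SB80) below. The SB189 counts were within both ranges. A gap of at least 1 between the nearer SB189 array and the nearest other array was left at 3 probe sets above (0.0152%) and 7 below (0.0355%). Without the array SB146 replicate 2 the count above rose to 719, and without either SB189 array, which leaves a single one to compare, both counts rose at least to 1015. The 3 above with that gap are Ta.4157.1.S1_at, Ta.29640.1.S1_x_at and TaAffx.59110.1.S1_at, the last reading 10.45 and 10.29 against a highest other value of 8.86. The 7 below are Ta.611.1.A1_at, Ta.611.2.S1_at, Ta.5479.2.A1_at, TaAffx.50254.2.A1_at and Ta.19312.1.S1_at, described above, and TaAffx.21788.1.S1_at (2.50 and 3.66) and Ta.5109.1.S1_a_at (9.66 in both), which were picked by this gap.

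The level shared with SB80 was examined further, by a rule chosen after seeing the data. At 75 probe sets in 67 clusters, the line means of both SB189 and SB80 were at least 1 below the lowest of the other 6 line means. With any other line in place of SB80 the count was 2 (SB15), 1 (SB165) or 0 (SB33, SB53, SB138 and SB146), and the mirror image, both at least 1 above, held at 7 probe sets with SB80. Just inside the rule lay TaAffx.82405.1.S1_s_at (1.03 below) and Ta.646.1.A1_at (1.07 below), and just outside it TaAffx.117361.3.S1_s_at (0.99) and Ta.9262.2.S1_x_at (0.98). 3 of the 75 are annotated.

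At these probe sets SB189 was low, but mostly not as low as SB80. Taken back to the linear scale, the median signal was 19.99% of the other 6 lines in the first SB189 array and 21.4% in the second, with quartiles of 14.6% to 28.9% and 13.8% to 27.8%. In the SB80 arrays the median was 8.08% and 8.96%. The SB189 mean was above the SB80 mean at 68 of the 75 and below it at 7. Both SB189 arrays were above both SB80 arrays at 53, and both below at 0. In the pair test of SB189 with SB80, 40 of the 75 were called higher in SB189 and 0 lower, where the same test called 2.37% of all 19740 higher and 1.05% lower. The rule used the values of both lines, so these counts describe the 75 probe sets and do not test them.

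Single probe sets show the step between the lines. Ta.27111.1.S1_at read 7.66 and 7.31 in SB189 and 2.25 and 2.51 in SB80, where the other 6 lines had a mean of 10.29. SB80 was at or near the floor and SB189 was not, which left SB189 at 14.3% and SB80 at 0.42% of the other lines. Ta.3590.2.S1_s_at read 8.42 and 8.64 in SB189, 4.45 and 2.60 in SB80, and 11.13 on average elsewhere. TaAffx.58521.1.S1_at read 7.38 and 7.25 in SB189, 2.42 and 3.21 in SB80, and 10.27 elsewhere. In all 3 the order was SB80, then SB189, then the other lines, with no overlap. The SB80 mean was under 3.25 at 24 of the 75 probe sets and the SB189 mean at 3.

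**Figure D3:**
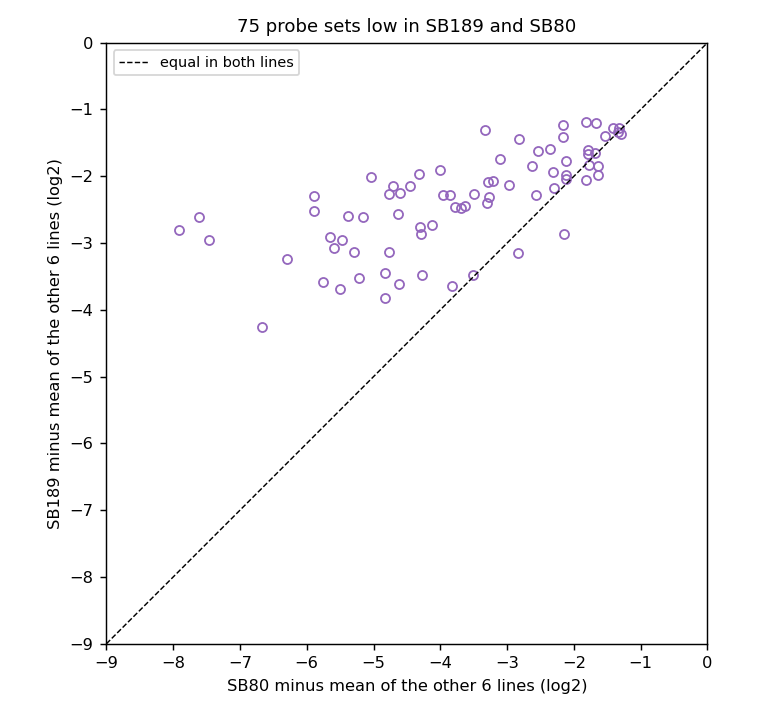
Log2 difference from the mean of the other 6 lines in SB80 (x axis) and in SB189 (y axis), 1 point for each of the 75 probe sets low in both (n = 2 arrays a line). The dashed line marks equal differences, and 68 of the 75 points lie above it.

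A like position between levels was found where SB80 was not the partner. This too was chosen after seeing the data. For each line in turn, probe sets were taken at which the other 7 line means fell into 2 classes, at least 2 apart, with at least 2 lines in each class and a range of at most 1 within it. The left-out line was then placed between the class means, from 0% at the low to 100% at the high. The values of the left-out line enter this choice only through the minimum of 5 on the mean over the 16 arrays.

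SB189 had 57 such probe sets in 55 clusters. It lay under 25% at 15 of them, above 75% at 21 and in the middle, between 25% and 75%, at 21 (36.8%, in 19 clusters). The rule uses line means, and some low classes of the 21 held lines with replicates more than 2 apart. At TaAffx.113846.1.S1_s_at SB33 read 10.44 and 2.25 and SB165 4.18 and 9.13, beside 11.49 and 10.66 in SB189. The others were Ta.25891.1.S1_at, Ta.1038.1.S1_a_at, both probe sets of Ta.2895.1 and both of Ta.22966.3. The middle position says little at these. In the other lines the middle held 7 of 44 (SB33), 6 of 42 (SB15), 5 of 45 (SB165), 1 of 32 (SB80) and none of 32, 35 and 35 (SB53, SB138 and SB146). Where SB189 was nearer the low class it lay a median of 0.66 above it, and where nearer the high class 0.61 below it. For the other lines the median distance from the high class was between -0.04 and 0.17, and from the low class it reached 0.59 in SB15 and 0.33 in SB33. With classes at least 3 apart, SB189 was in the middle at 15 of 31, SB15 at 5 of 20, SB165 at 3 of 17, SB33 at 2 of 15 and the other 4 lines at none. At that setting the median distance above the low class was 0.92 in SB189, 1.04 in SB15 and 0.83 in SB33 and in SB165, and the median distance from the high class was -0.81 in SB189 and between -0.14 and 0.23 in the others.

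The middle position was seen in both replicates. Taken singly, the first SB189 array was in the middle at 19 and the second at 25 of the 57, and 14 of the 21 were in the middle for both. Ta.30560.1.S1_at read 6.74 and 7.30, between class means of 2.77 and 9.28. Ta.27795.1.S1_at read 12.72 and 13.08, between 9.96 and 14.66. Ta.25891.1.S1_at read 6.00 and 6.01, between 4.63 and 8.67. In the first 2 the SB189 arrays lay outside the arrays of both classes. In Ta.25891.1.S1_at they did not, since SB33 of the low class had arrays at 6.20 and 2.89.

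In the pair tests, SB189 differed from each of the 7 other lines at 4 of the 57 probe sets (7.02%) and lay between the classes at all 4, where over all 19740 it differed from all 7 lines at 64 (0.324%). The 2 shares are not on equal terms. The rule kept probe sets with classes at least 2 apart, where a middle value is far from every line. SB15 had 2 such probe sets of 42, and the other 6 lines had none. The comparison with the 7 lines together hardly sees this position, as 2 of the 21 middle probe sets were called by it. The median difference between the SB189 arrays was the highest of the 8 lines, as given above, and its part in the middle position was not tested.

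**Figure D4:**
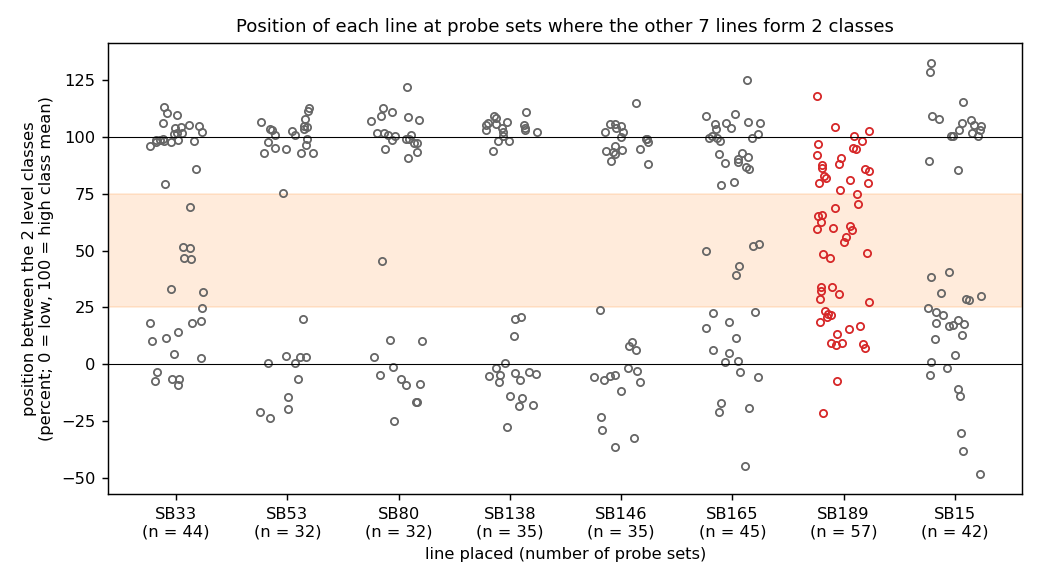
Position of each line (x axis, with the number of probe sets) between the means of the 2 level classes formed by the other 7 lines (y axis, percent, 0 at the low and 100 at the high class mean), 1 point for each probe set. The band marks 25% to 75%, which holds 21 of 57 points of SB189 (red) and at most 7 in any other line.

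Set against single lines, SB189 differed at the fewest probe sets from SB33. These 7 comparisons share the SB189 arrays, and each was adjusted on its own by limma. SB33 differed at 279 probe sets (1.41%), of which 81 (0.41%) were higher and 198 (1%) lower in SB189. SB146 differed at 378 (1.91%), SB53 at 488 (2.47%), SB15 at 585 (2.96%), SB138 at 588 (2.98%), SB165 at 638 (3.23%) and SB80 at 674 (3.41%). SB80 was the only line against which most calls were higher in SB189, 467 (2.37%) against 207 lower (1.05%). Over all 61115 probe sets the counts were 448 for SB33 (0.733%), 583 for SB146 (0.954%), 755 for SB53 (1.24%), 824 for SB138 (1.35%), 841 for SB15 (1.38%), 961 for SB80 (1.57%) and 977 for SB165 (1.6%), so the line with the most calls depends on whether dim probe sets are counted. SB33 had the fewest calls in 22 of 24 alternatives, and SB146 in the 2 that left out an SB33 array. The correlation of the SB189 arrays with those of another line was highest for SB33, 0.980 to 0.983, and lay between 0.968 and 0.979 for the other 6. Over the array as a whole SB189 was thus nearest to SB33, while SB80 was on its side in 70 of the 105 falls of at least 1. Of the 10 largest falls, 4 were shared with SB80 and 5 were found in SB189 alone.

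**Figure D5:**
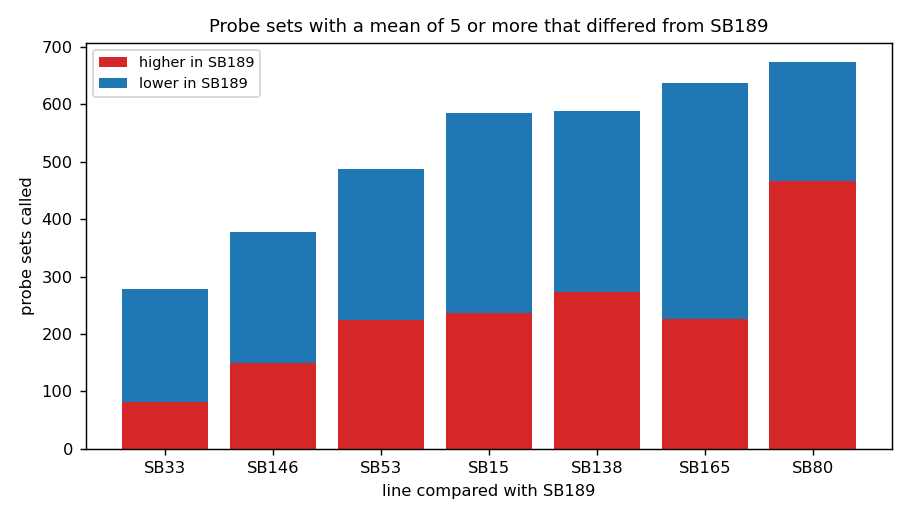
Number of probe sets with a mean of 5 or more (y axis) called by limma between SB189 and each other line (x axis; 2 arrays a line), split into those higher (red) and lower (blue) in SB189. The bars run from 279 for SB33 to 674 for SB80, and SB80 has the largest red share.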

How the data were processed

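The submitters' processing notes name RMA and GCRMA, which give a background-corrected, normalized value per probe set; which of them made the table, and in what version, is not given in the sources used here. The deposited values are log2 values, a scale read from their range (2.25 to 16.67). Detection calls were not used here. The 175 control probe sets were left out of the tests. Gene symbols came from the platform annotation, brought up to date by gene identifier with RefSeq (IWGSC CS RefSeq v2.1), which held 1272 of 1273 annotated probe sets. No sequence is printed, as none was used here.

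A mean per line was fitted to the log2 values of all 16 arrays by lmFit and eBayes of limma 3.58.1 (R 4.3.3), which left 8 residual degrees of freedom. SB189 minus the mean of the other 7 line means was tested two-sided, and SB189 against each line in the same fit. Benjamini-Hochberg adjustment covered all 61115 probe sets of a contrast, and 0.05 was the threshold. With 0.39 prior degrees of freedom, little spread was borrowed between probe sets. With 2 arrays a line, the number of arrays limits the precision, and SB189 shares its estimate of spread with the other lines. The limma step was tested on simulated data. Pandas 2.3.3, numpy 2.4.6 and matplotlib 3.10.9 served for the tables and plots.

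Named were the annotated genes called in SB189, each by its probe set of lowest p, the 10 highest and 10 lowest called probe sets with a mean of 5 or more, and up to 4 members of a list. The lists were searched in symbols and synonyms only, so a gene with a locus number alone enters none of them. Members, lists and rules were chosen with earlier results of these data known. Probe sets named in the accounts of the level shared with SB80 and of the position between level classes were chosen after their values were seen.

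The field replicate numbers were checked as pairs through the correlation of deviations from the line means. It lay between -0.21 and 0.38 over the 28 pairs of lines and was above 0.1 in 16 of them. These values do not settle whether equal numbers mark shared conditions. The main fit left the replicate number out, and the replicate block was run as an alternative. Alternatives were a fit of the brighter probe sets alone, one without the constant ones, subtracted array medians, quantile normalization, a trend and robust prior, array weights, a minimum difference of 1, the replicate block, leaving out each array, and leaving out SB80 or SB165.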

Additional observations from a re-analysis of the deposited data

Results flagged for a closer look

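The control probe sets were used in no comparison, and 3 kinds of them had a signal in SB189 above the negative controls, which stood at 2.25. The 18S rRNA control lay 7.80 above them on the log2 scale, at 9.86 and 10.25 in the SB189 arrays and between 5.11 and 12.09 in the others. The poly-A spikes, RNA added before labelling, lay 7.04 above, at 9.52 and 9.07, with SB189 ranked 7 of 8 lines. The hybridisation spikes, added with the labelled sample, lay 8.83 above, at 10.81 and 11.37, with SB189 ranked 1 of 8.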

How the results depend on the processing

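Of 42 probe sets and genes named as called, 26 kept their call under every alternative other than the minimum difference of 1, and none changed sign. Among all 86 named items, 9 that were not called changed sign under an alternative, 1-FEHw2, AGA.1, petC and PR5 among them. The main counts were 776 calls over all probe sets, 516 at a mean of 5 or more (206 higher, 310 lower), 23 genes and 3 list members. With only the brighter probe sets in the fit, the calls were 1194 (571 higher, 623 lower), the list members 5, and the calls against SB138 and SB165 1378 and 1480 (main counts over all probe sets 824 and 977). With array medians subtracted they were 1311 over all probe sets, 1016 at a mean of 5 or more (411 higher, 605 lower), 5 list members, and 1414, 1323, 1552 and 1576 against SB138, SB15, SB165 and SB80. Array weights gave 132 higher calls, 13 genes and 571 calls against SB80. Without line SB80 there were 15 genes, and 794 probe sets with both SB189 arrays below the rest. Without line SB165 there was 1 list member. A minimum difference of 1 left 258 calls over all probe sets, 169 at a mean of 5 or more (64 higher, 105 lower), 7 genes and 0 list members by limma, 3 and 7 probe sets with SB189 above and below all others, and 350, 317, 415, 460, 234, 363 and 431 calls against SB138, SB146, SB15, SB165, SB33, SB53 and SB80. The causes were not tested.

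The share of higher calls over all probe sets, 50.9%, crossed 50 under quantile normalization (49.2%), subtracted medians (49.0%), the replicate block (49.9%), without SB80 (46.5%) and with a minimum difference of 1 (49.6%). The field replicate as a block changed no count of calls by over 1.5 times. It ended the calls of 3 genes, LOC543111, LOC780658 and LOC543244, and brought 6-FEH past the threshold. Leaving out 1 array at a time gave 1117 to 3007 calls over all probe sets, 405 to 1186 at a mean of 5 or more, 201 to 295 of them higher and 204 to 917 lower, 9 to 23 genes and 0 to 4 list members by limma. The share of higher calls ran from 28.1% to 77.7% over all probe sets and from 22.7% to 49.6% at a mean of 5 or more. Leaving out any array but SB15 replicate 1 and SB33 replicate 1 moved the count over all probe sets by over 1.5 times. Over all probe sets the pair calls ran from 610 to 3044 against SB138, 461 to 2550 against SB146, 615 to 2864 against SB15, 696 to 3504 against SB165, 336 to 2214 against SB33, 621 to 2678 against SB53 and 770 to 2585 against SB80. Probe sets outside all other arrays ran from 465 to 1649 above and 494 to 3162 below. With quantile normalization the level shared low with SB80 was found at 76 probe sets, and with a gap of 2 in place of 1 at 36.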
